A study of Canis lupus familiaris with 60 samples.

Results

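The 4 genes FLG2, ASPRV1, KPRP and LOR, which build or trim the outermost layer of the epidermis, were followed through an allergen patch test on dog skin. Every probe whose identifier belongs to them was taken. FLG2 has 2 probes (ENSCAFT00000020634 and ENSCAFT00000020610), while ASPRV1 (ENSCAFT00000005320), KPRP (ENSCAFT00000020644) and LOR (XM_859347) have 1 each. These 5 probes of the 60068 on the array all passed the filter on dim spots, which 45972 probes passed.

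Keratinocytes on their way to the skin surface flatten, lose their nuclei and replace their cell membrane with a shell of cross-linked proteins, the cornified envelope. Filaggrin and its relatives bundle keratin filaments in these cells and are then broken down into small molecules that hold water, and a lack of filaggrin is a known risk factor for atopic dermatitis in people. In the human genome FLG2, KPRP and LOR lie together in the epidermal differentiation complex, a cluster of genes for late keratinocyte proteins, and ASPRV1 lies elsewhere.

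The skin came from 12 Beagle dogs aged 2 to 3 years (mean 2.3), of which 6 had been sensitized to a house dust mite, Dermatophagoides farinae (4 males and 2 females), and 6 were nonsensitized (2 males and 4 females). Each dog gave 5 biopsies of 8 mm from the clipped lateral chest: untreated skin at 0 hr, and sites patched with 75 mg of mite paste (allergen) or 50 µl of saline, taken at 6 hr and at 24 hr. Each biopsy was hybridized to its own one-colour array, which gave 10 groups of 6 arrays. Specimen 14, the 24 hr allergen site of dog 2839, had degraded RNA and was left out except where all 60 arrays are named as an alternative, so that group held 5 arrays. Saline sites were patched in the same way as allergen sites and untreated skin was not, so a difference from untreated skin holds the patch, the elapsed hours and the applied substance together.

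Levels are given as the log2 of the background-subtracted signal after scaling between arrays. Over all 60 arrays, the median signal before scaling lay between 70.97 and 146.12, and between 67.65% and 80.15% of the spots were well above background. All 5 probes were well above background on 59 of 59 arrays. Before scaling, the median signal was 27242 for the brighter FLG2 probe (ENSCAFT00000020634), 2471 for the other FLG2 probe, 5006 for ASPRV1, 1830 for KPRP and 410 for LOR. The brighter probe describes FLG2 here, and no probe's level is set against another's. A probe was called a differentially expressed gene (DEG) when it changed 1.5-fold or more with a limma adjusted p under 0.05.

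In each of the 5 probes the 24 hr allergen sites of sensitized dogs had the lowest mean of the 10 groups. The step from this group up to the next was 1.02 for FLG2 (ENSCAFT00000020634), 1.19 for FLG2 (ENSCAFT00000020610), 0.75 for ASPRV1, 0.74 for KPRP and 0.83 for LOR. In each case it was larger than the SD of either neighbour. No other step between neighbouring groups exceeded the larger SD in any of the 5 probes, so neighbours among the other 9 groups are not resolved. Groups farther apart in the order are compared below. A biopsy mixes all cell types of the skin, and fewer cells of a type and less RNA per cell cannot be told apart.

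FLG2 encodes a filaggrin relative of the cornified layer. At the 24 hr allergen sites of sensitized dogs its brighter probe (ENSCAFT00000020634) read 12.98 in dog 2838, 14.15 in dog 2840, 13.05 in dog 2841, 13.26 in dog 2853 and 13.54 in dog 2855. At the saline sites of all 6 sensitized dogs it ran from 14.00 (median 14.67) to 15.06, and at the allergen sites of nonsensitized dogs from 13.94 (median 14.43) to 15.29. Of the 5 arrays, 4 lay below each of the other 54 arrays of the 59, and dog 2840 reached into the range of the other 24 hr sites. The same count was 2 for FLG2 (ENSCAFT00000020610), 3 for ASPRV1, 3 for KPRP and 2 for LOR. How many of all probes behave so, here or in the overlaps of ranges given below, was not counted. Signal fell by 1.23 ± 0.23 (SE) from saline to allergen in sensitized dogs, a 2.35-fold change (adjusted p = 0.00444), and it was lower at the allergen site in 5 of 5 dogs.

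The dimmer FLG2 probe (ENSCAFT00000020610) read 8.60 in dog 2838, 10.44 in dog 2840, 10.44 in dog 2841, 9.92 in dog 2853 and 10.33 in dog 2855. Saline sites of sensitized dogs held 10.67 to 11.92 (median 11.51) and allergen sites of nonsensitized dogs 11.05 to 12.49 (median 11.80). The sensitized allergen sites overlapped neither group, and dog 2838 stood far below the other 4 dogs. This probe fell by 1.46 ± 0.30 from saline to allergen (2.76-fold, adjusted p = 0.00919), with the allergen site lower in 5 of 5 dogs. The difference within dogs ran from -3.29 in dog 2838 to -0.23 in dog 2841.

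ASPRV1 encodes the skin aspartic protease that cuts the filaggrin precursor. Its probe read 11.06 in dog 2838, 11.02 in dog 2840, 11.87 in dog 2841, 11.43 in dog 2853 and 11.71 in dog 2855 at the 24 hr allergen sites. The saline sites of sensitized dogs held 11.84 to 12.62 (median 12.30) and the allergen sites of nonsensitized dogs 12.19 to 12.98 (median 12.68). Dogs 2841 and 2855 had the higher values. The sensitized allergen sites overlapped the saline sites only through dog 2841, and they did not overlap the nonsensitized allergen sites. ASPRV1 fell by 0.88 ± 0.19 from saline to allergen in sensitized dogs (1.84-fold, adjusted p = 0.0131, lower in 5 of 5 dogs).

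KPRP encodes the keratinocyte proline-rich protein of the upper epidermis. The 24 hr allergen sites of sensitized dogs were close together, at 9.85 in dog 2838, 9.79 in dog 2840, 10.23 in dog 2841, 9.67 in dog 2853 and 10.02 in dog 2855. The saline sites of sensitized dogs ran from 10.32 (median 11.17) to 11.54, and the allergen sites of nonsensitized dogs from 10.88 (median 11.22) to 12.07. No value of the sensitized allergen sites reached either range. KPRP fell by 1.12 ± 0.28 from saline to allergen (2.17-fold, adjusted p = 0.0443, lower in 5 of 5 dogs).

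LOR encodes loricrin, a main protein of the cornified envelope. It read 7.30 in dog 2838, 8.04 in dog 2840, 8.38 in dog 2841, 7.03 in dog 2853 and 7.75 in dog 2855. Saline sites of sensitized dogs were spread from 7.89 (median 9.05) to 9.74, and allergen sites of nonsensitized dogs from 8.44 (median 8.90) to 9.57. Dogs 2840 and 2841 were the highest and overlapped the saline range, whose own lowest value was that of dog 2853, and no array overlapped the nonsensitized allergen sites. LOR fell by 1.32 ± 0.29 from saline to allergen (2.50-fold, adjusted p = 0.0176, lower in 5 of 5 dogs).

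In sensitized dogs at 24 hr all 5 probes were thus DEG between allergen and saline, where 0.274% of the 45972 probes were. Leaving out 1 dog ended several of these calls. All 5 were lost without dog 2855, 4 without dog 2838 (all but FLG2, ENSCAFT00000020634), and 3 without dog 2839 (ASPRV1, KPRP and LOR), whose 24 hr allergen site was not in the fit. ASPRV1 and KPRP were lost without dog 2840, and KPRP alone was lost without any 1 of dogs 2841, 2845, 2847 and 2853. KPRP was called in 13 of the 26 alternatives, and it was also lost with 75th percentile scaling, with normexp and quantile scaling, with unscaled values and without the filter on dim probes. None of the 5 was called when only the arrays of the groups compared were fitted, with adjusted p = 0.109 for FLG2 (ENSCAFT00000020634). The difference was negative in all 26 for each probe, and it kept within -1.49 to -1.11 for FLG2 (ENSCAFT00000020634), -1.73 to -1.03 for FLG2 (ENSCAFT00000020610), -1.18 to -0.69 for ASPRV1, -1.50 to -1.02 for KPRP and -1.50 to -1.12 for LOR.

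In nonsensitized dogs no probe was a DEG between the same sites by limma, against 0.766% of all probes, and 1 (ASPRV1) had an unadjusted p under 0.05. The differences were 0.17 for FLG2 (ENSCAFT00000020634), 0.42 for FLG2 (ENSCAFT00000020610), 0.37 for ASPRV1, 0.30 for KPRP and 0.08 for LOR, with adjusted p from 0.418 to 0.993. The dimmer FLG2 probe was higher at the allergen site in 6 of 6 dogs and ASPRV1 in 5, whereas KPRP was higher in 3 and LOR in 2. The dimmer FLG2 probe lay between 0.04 and 0.78 within dogs. Dog 2800 had the highest difference in each probe, from 0.76 for LOR to 1.14 for KPRP.

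The interaction compares the allergen effect of sensitized dogs with that of nonsensitized dogs. At 24 hr 3 of 5 probes were DEG, against 0.94% of all probes. The difference between the effects was -1.41 ± 0.32 for FLG2 (ENSCAFT00000020634, adjusted p = 0.0191), -1.88 ± 0.42 for FLG2 (ENSCAFT00000020610, adjusted p = 0.0167) and -1.25 ± 0.26 for ASPRV1 (adjusted p = 0.013). KPRP (-1.42 ± 0.39, adjusted p = 0.0506) and LOR (-1.41 ± 0.41, adjusted p = 0.0648) were of the same size and did not pass. All 4 genes belong to the gene list drawn from this contrast of these arrays, so these p-values are no independent evidence, nor are those of other comparisons that use the same allergen arrays.

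Which of the 5 probes passed the interaction depended on the fit, and the sign did not. With the dog as a block all 5 were DEG, at -1.37, -1.79, -1.24, -1.38 and -1.31 in the order above (adjusted p = 0.000607 to 0.004). Over the 26 alternatives FLG2 (ENSCAFT00000020634) was called in 21, FLG2 (ENSCAFT00000020610) in 22, ASPRV1 in 23, KPRP in 10 and LOR in 7, with every difference negative and adjusted p from 0.000607 to 0.207. No probe was called without dog 2800 or without dog 2855. Without dog 2802 only ASPRV1 was called, without dog 2838 the dimmer FLG2 probe was lost (-1.45, adjusted p = 0.0609), and without dog 2841 the brighter was lost (-1.28, adjusted p = 0.0548). KPRP joined without dog 2704 or 2716, and LOR without dog 2704 or 2853.

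Each slide held arrays of several groups, and most 24 hr arrays were on slides 1 to 3. On slide 3, with 3 allergen and 3 saline arrays of sensitized dogs, allergen minus saline was -1.30 for FLG2 (ENSCAFT00000020634), -1.48 for FLG2 (ENSCAFT00000020610), -0.87 for ASPRV1, -1.14 for KPRP and -1.30 for LOR. On slide 2, with 1 allergen and 2 saline arrays, the differences were -1.74, -1.19, -0.49, -0.76 and -0.92 in that order. Nonsensitized dogs on slide 1, with 4 allergen and 3 saline arrays, gave 0.23, 0.69, 0.39, 0.54 and 0.32. On slide 2 (1 allergen and 2 saline arrays) they gave -0.03, -0.05, 0.20, -0.10 and -0.31, and on slide 3 (1 and 1) 0.22, 0.28, 0.33, -0.07 and -0.15. The interaction within slide 3 lay between -1.76 and -1.07 and within slide 2 between -1.70 and -0.61. These within-slide values rest on as few as 1 array per site and on different dogs, so they are descriptions without a test. With the slide as a fixed block all 5 probes were DEG in the interaction.

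Specimen 14 was low in all 5 probes. It read 12.14 for FLG2 (ENSCAFT00000020634), 8.65 for FLG2 (ENSCAFT00000020610), 9.56 for ASPRV1, 7.60 for KPRP and 7.12 for LOR, which is from -3.92 for KPRP to -2.62 for LOR against the saline site of the same dog. It was the lowest array of all for the brighter FLG2 probe, ASPRV1 and KPRP. With all 60 arrays in the fit, 5 of 5 probes were DEG in the 24 hr interaction, at -1.61, -2.09, -1.55, -1.80 and -1.51. The part of RNA degradation in these values was not tested.

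Compared directly between the dogs, the 24 hr allergen sites gave 5 of 5 probes lower in sensitized than in nonsensitized dogs, where 7.13% of all probes were DEG. The difference was -1.20 ± 0.23 for FLG2 (ENSCAFT00000020634, adjusted p = 0.000292), -1.83 ± 0.30 for FLG2 (ENSCAFT00000020610, adjusted p = 4.58e-05) and -1.24 ± 0.19 for ASPRV1 (adjusted p = 1.69e-05). KPRP differed by -1.37 ± 0.28 (adjusted p = 0.000499) and LOR by -1.23 ± 0.29 (adjusted p = 0.00229). Each of the 5 stayed a DEG in 26 of 26 alternatives. At the 24 hr saline sites limma called no probe between the same dogs (2.38% of all probes), 0 had an unadjusted p under 0.05, and the differences lay between 0.01 and 0.21.

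Comparisons with untreated skin share the 0 hr arrays of the same dogs and so are not independent of each other. Untreated skin of sensitized dogs held FLG2 (ENSCAFT00000020634) at 14.44 to 15.59 (median 14.81), ASPRV1 at 11.69 to 12.56 (median 12.15), KPRP at 10.11 to 11.12 (median 10.75) and LOR at 8.03 to 9.08 (median 8.87). The 24 hr allergen sites overlapped the untreated range for ASPRV1, KPRP and LOR, and for neither FLG2 probe. The share of all probes without such overlap was not counted. From untreated skin to the 24 hr allergen site of sensitized dogs 5 of 5 probes fell, against 13.7% DEG among all probes. FLG2 (ENSCAFT00000020634) fell by 1.47 ± 0.23 (adjusted p = 2.96e-06), FLG2 (ENSCAFT00000020610) by 1.26 ± 0.30 (adjusted p = 0.000954) and ASPRV1 by 0.75 ± 0.19 (adjusted p = 0.00155). KPRP fell by 0.76 ± 0.28 (adjusted p = 0.0287) and LOR by 1.06 ± 0.29 (adjusted p = 0.00357), and each probe was lower in 5 of 5 dogs. The KPRP call was lost without any 1 of dogs 2838, 2840, 2841 and 2855, at -0.65 (adjusted p = 0.104) without dog 2838, and it held in 17 of 26 alternatives.

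Untreated skin and 24 hr sites shared almost no slide, so slide and time cannot be told apart in most of these arrays. On slide 8, the only slide with both, 1 allergen array of a sensitized dog minus 3 untreated arrays gave -0.60 for FLG2 (ENSCAFT00000020634), -0.50 for FLG2 (ENSCAFT00000020610), -1.03 for ASPRV1, -0.75 for KPRP and -0.60 for LOR. With the slide as a fixed block only ASPRV1 remained a DEG (-1.11, adjusted p = 0.0134), while FLG2 (ENSCAFT00000020634) stood at -0.66 (adjusted p = 0.29) and KPRP at -0.94 (adjusted p = 0.231). With the slide as a random block all 5 remained. Under the fixed block, the 1 allergen array on slide 8 is the only link between untreated and 24 hr arrays, also for nonsensitized dogs.

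In nonsensitized dogs the allergen site at 24 hr did not lie below untreated skin in most probes. KPRP ran from 10.88 (median 11.22) to 12.07 at the allergen site and from 10.02 (median 10.61) to 11.07 in untreated skin, with overlapping ranges. It rose by 0.63 ± 0.27 (1.55-fold, adjusted p = 0.0491, higher in 6 of 6 dogs) and was the only DEG of the 5 probes, against 17% of all probes. This call was lost without any 1 dog other than 2704 and 2802, and with the slide as a fixed block (0.43, adjusted p = 0.823). Without dog 2716, FLG2 (ENSCAFT00000020610) was called in its place (0.77, adjusted p = 0.0484). With the dog as a block it held (adjusted p = 0.00447) and FLG2 (ENSCAFT00000020610) joined it (0.61, adjusted p = 0.0267). ASPRV1 stood at 0.43 ± 0.18 (adjusted p = 0.0497), which is 1.34-fold and under the fold limit, and it turned to -0.26 with the slide as a fixed block (adjusted p = 0.825). LOR stood at 0.40 (adjusted p = 0.249).

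The 2 FLG2 probes differed in sign in this comparison. The brighter (ENSCAFT00000020634) ran from 13.94 (median 14.43) to 15.29 at the allergen site against 14.65 (median 14.90) to 15.43 in untreated skin. The dimmer (ENSCAFT00000020610) ran from 11.05 (median 11.80) to 12.49 against 10.61 (median 11.11) to 11.77. Their differences were -0.41 (adjusted p = 0.134, lower in 6 of 6 dogs) and 0.61 (adjusted p = 0.0818, higher in 5 of 6 dogs), and neither was a DEG. With the slide as a fixed block both differences were positive, 0.80 for the brighter (adjusted p = 0.521) and 1.39 for the dimmer (adjusted p = 0.298). That fit links 24 hr and untreated arrays only through 1 allergen array of a sensitized dog, so it cannot decide the disagreement.

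At the 24 hr saline sites limma called no probe against untreated skin in sensitized dogs (9.48% of all probes), with 0 at an unadjusted p under 0.05 and differences from -0.24 to 0.37. In nonsensitized dogs it called none either, against 22.7% of all probes, and 1 had an unadjusted p under 0.05. That probe was FLG2 (ENSCAFT00000020634), at 14.01 to 14.91 (median 14.39) against 14.65 to 15.43 (median 14.90) in untreated skin. It was -0.58 ± 0.22 (adjusted p = 0.0257, lower in 6 of 6 dogs), which is 1.49-fold and just under the fold limit. It became a DEG without any 1 of dogs 2802, 2845 and 2847, and its direction turned with the slide as a fixed block (0.60, adjusted p = 0.584).

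The 6 hr sites carried no call in any of the 5 probes. Between allergen and saline at 6 hr limma found 0 DEG in sensitized dogs (0.418% of all probes), with 1 probe at an unadjusted p under 0.05. This was ASPRV1, at 11.91 to 12.70 (median 12.28) with allergen and 12.15 to 12.96 (median 12.78) with saline, a difference of -0.39 that was negative in 6 of 6 dogs. KPRP was also lower with allergen in 6 of 6 sensitized dogs (-0.43). In nonsensitized dogs limma found 0 DEG (0.0348% of all probes), 0 probes with an unadjusted p under 0.05 and differences from -0.26 to -0.03. The 6 hr interaction held 0 DEG by limma (0% of all probes), with 0 at an unadjusted p under 0.05 and differences from -0.22 to -0.08.

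Against untreated skin, the 6 hr saline sites of sensitized dogs held 0 DEG by limma (2.65% of all probes) and 2 probes with an unadjusted p under 0.05. ASPRV1 ran from 12.15 (median 12.78) to 12.96 at these sites and from 11.69 (median 12.15) to 12.56 in untreated skin. Its difference of 0.54 ± 0.18 (adjusted p = 0.0418, higher in 5 of 6 dogs) is 1.45-fold, under the fold limit, and it became a DEG without dog 2838. KPRP stood at 0.59 ± 0.27 (1.51-fold, adjusted p = 0.14) and was a DEG with the dog as a block (adjusted p = 0.0209). In nonsensitized dogs limma gave 0 DEG (2.27% of all probes) and 1 probe with an unadjusted p under 0.05, with ASPRV1 at 0.37 (adjusted p = 0.179, higher in 6 of 6 dogs).

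The 6 hr allergen sites stayed near untreated skin. In sensitized dogs limma gave 0 DEG (3.87% of all probes) and 0 probes with an unadjusted p under 0.05, with differences from -0.19 to 0.16. The nonsensitized dogs likewise had 0 DEG by limma (1.61% of all probes), 0 probes with an unadjusted p under 0.05 and differences from -0.12 to 0.20.

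Before any patch, no difference between the dogs was called in these genes. At 0 hr limma gave 0 DEG between sensitized and nonsensitized dogs (0.00218% of all probes) and 0 probes with an unadjusted p under 0.05, with differences from -0.13 for FLG2 (ENSCAFT00000020634) to 0.23 for LOR. LOR ran from 8.03 (median 8.87) to 9.08 in sensitized and from 8.16 (median 8.37) to 9.30 in nonsensitized dogs. On slide 7, with 2 sensitized and 5 nonsensitized dogs, FLG2 (ENSCAFT00000020634) differed by -0.38 and LOR by 0.19, and on slide 8, with 3 and 1, by 0.10 and 0.46. The 6 dogs of a group limit how small a difference can be seen.

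In untreated skin FLG2, KPRP and LOR varied together over the 12 dogs. KPRP followed LOR with r = 0.83 (permutation p = 0.00114, adjusted p = 0.00915), and FLG2 (ENSCAFT00000020634) followed KPRP with r = 0.80 (permutation p = 0.00183, adjusted p = 0.00915). The 2 FLG2 probes correlated at r = 0.78 (permutation p = 0.00278, adjusted p = 0.00927), which fell short by rank (rho = 0.59, adjusted permutation p = 0.0822). Of the 10 pairs 6 had an adjusted p under 0.05. Without the 2 dogs farthest from the median of the first probe of each pair (in the order FLG2, ASPRV1, KPRP, LOR) none did. KPRP and LOR were then at r = 0.78 (permutation p = 0.00794, adjusted p = 0.0794). On slide 7 alone no pair had an adjusted p under 0.05.

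Over all 12 dogs no correlation of ASPRV1 was called, with r from 0.04 for LOR to 0.12 for FLG2 (ENSCAFT00000020610). In the 6 sensitized dogs its r was 0.87 with KPRP (exact p = 0.0306, adjusted p = 0.0694) and 0.84 with LOR (exact p = 0.0139, adjusted p = 0.0556). In the 6 nonsensitized dogs it was -0.97 with KPRP (exact p = 0.00833, adjusted p = 0.0417, and adjusted exact p = 0.111 by rank with rho = -0.89) and -0.84 with LOR (exact p = 0.0333, adjusted p = 0.102). The difference between the dogs in these correlations was not tested. Over the 59 arrays with the group means removed, r was 0.84 for KPRP and LOR, and 0.70 for the FLG2 probes. For ASPRV1 it was 0.39 with KPRP, 0.28 with LOR, 0.05 with FLG2 (ENSCAFT00000020634) and 0.03 with FLG2 (ENSCAFT00000020610).

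Among the 1243 named genes with a usable probe, those most like the 5 probes over the 59 arrays were ESYT3 (r = 0.91), EPS8L1 (0.90), AIF1L (0.88), NMT2 (0.87), LY6G6C (0.87), CA6 (0.86), ANKRD35 (0.84) and DSTYK (0.83). NRTN and CTNNBIP1 followed at 0.82. Most of these are on the gene list drawn from the 24 hr interaction of these arrays, so their likeness is not independent of it. That list alone gave the names of 463 identifiers, so the named genes are not an even sample of the array. With the group means removed ESYT3 (0.88), EPS8L1 (0.88), AIF1L (0.84), NMT2 (0.83) and CTNNBIP1 (0.83) still led. The genes most opposed were SRP14, NME1 and CTLA4 (each -0.69), ALPL (-0.68) and IL18BP (-0.67). With the group means removed they were EDNRB (-0.72), NME1 (-0.70), MTHFD2 (-0.69), SLC1A3 (-0.68) and CTLA4 (-0.65).

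Other genes of the epidermal barrier were sorted into lists that had been chosen with earlier results of these data known. Of 39 listed genes of the cornified envelope 5 could be matched, and 3 were lower in the 24 hr interaction, in which 0.94% of all probes were DEG and 156 of them lower: SCEL (-1.17, adjusted p = 0.0267), PPL (-0.62, adjusted p = 0.0409) and TGM1 (-0.59, adjusted p = 0.0332). SCEL and PPL encode envelope precursors and TGM1 the transglutaminase that cross-links them. Between allergen and saline in sensitized dogs 0 of the 5 envelope genes were called, against 0.274% of all probes. Their median was -0.33, and 0.27 in nonsensitized dogs. Of 6 matched proteases and related genes of filaggrin processing and desquamation 1 was lower in the interaction, BLMH (-0.90, adjusted p = 0.0272). Its product breaks filaggrin down to amino acids. Between allergen and saline in sensitized dogs 0 of the 6 were called (median -0.2, and 0.24 in nonsensitized dogs). Most of the matched genes are on the list drawn from the 24 hr interaction (4 of the 5 envelope genes), so their direction is no independent evidence.

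Against the same 0.94% of all probes, 1 of 5 matched suprabasal keratins and desmosome genes was lower in the interaction, DSP (-0.62, adjusted p = 0.0411). KRT77 stood at -1.45 there (adjusted p = 0.0518). From saline to allergen in sensitized dogs KRT77 fell (-1.20, adjusted p = 0.035). It was the only 1 of these 5 genes called there, against 0.274% of all probes. In the interaction 1 of 6 matched genes of epidermal lipids was lower, PPARA (-0.84, adjusted p = 0.0472), and 1 of 4 tight junction genes, CGN (-0.97, adjusted p = 0.0175). Between allergen and saline in sensitized dogs 0 of the 6 lipid genes and 1 of the 4 tight junction genes were called lower. None of 3 matched regulators was called in the interaction, where GATA3 stood at -0.83, RORA at -0.94 and ZNF750 at -0.58. Between the 24 hr allergen sites of sensitized and nonsensitized dogs, where 7.13% of all probes were DEG, GATA3 (-0.79) and RORA (-1.18) were lower, as were ALOXE3 (-0.80), ASAH2 (-0.87) and PPARA (-0.66) of the lipid genes, and KRT2 (-0.76) and KRT77 (-1.51). From untreated skin to the 24 hr allergen site of sensitized dogs, where 13.7% of all probes were DEG, GATA3 fell by 0.73 and RORA by 0.76.

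Markers of other cell types were read in the same arrays. The suprabasal keratinocyte markers include the 4 genes themselves. Of the others none was a DEG in the 24 hr interaction (0.94% of all probes). None was a DEG between allergen and saline in sensitized dogs at 24 hr either (0.274% of all probes). Each of these lists had only 1 to 4 matched genes, so no call is near what those shares give. Between the 24 hr allergen sites of sensitized and nonsensitized dogs 7.13% of all probes were DEG. There S100A8 (2.56) and PMEL (0.86) were higher and KRT15 (-0.82) and MYH7 (-1.60) lower. PMEL was 1 of 3 matched melanocyte genes and MYH7 1 of 2 skeletal muscle genes. The summed level of the melanocyte genes, PMEL the brightest, was higher in sensitized dogs also in untreated skin (mean 13.72 against 13.1). At 24 hr saline sites it was 13.07 against 11.93. S100A8, a gene of activated keratinocytes that neutrophils also express, ran from 16.65 (median 17.51) to 17.74 at the 24 hr allergen sites of sensitized dogs, and from 14.21 (median 14.95) to 15.76 at their saline sites without overlap. Allergen minus saline was 2.44 for S100A8 (adjusted p = 0.0895) and its interaction 2.83 (adjusted p = 0.118), and against untreated skin it rose by 4.82 (adjusted p = 4.99e-07) and, at the 6 hr allergen site of the same dogs, by 2.48. The basal keratin KRT15 fell by 1.20 from untreated skin in the same dogs (adjusted p = 1.24e-07) and stood at -0.76 in the interaction (adjusted p = 0.0636).

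Of 4 matched mast cell genes 3 rose from untreated skin to the 24 hr allergen site of sensitized dogs, against 13.7% DEG among all probes: MS4A2 (1.40), FCER1A (1.09) and CMA1 (0.83). The macrophage gene CD163, 1 of 3 matched leukocyte genes, rose by 1.40. From untreated skin to the 24 hr saline site of nonsensitized dogs 22.7% of all probes were DEG. There MS4A2 rose by 1.33, FCER1A by 0.90, CMA1 by 0.97, CD163 by 1.87, S100A8 by 2.14 and the hair follicle keratin KRT71 by 1.19, and KRT15 fell by 0.78. At the 24 hr saline site of sensitized dogs, against 9.48% of all probes, S100A8 rose by 2.38, CD163 by 1.34 and MS4A2 by 0.81, and KRT15 fell by 0.82. At the 24 hr allergen site of nonsensitized dogs, against 17% of all probes, S100A8 rose by 1.75 and KRT15 was not called (-0.40). Of the 2 endothelial genes KDR rose by 0.61 and VWF fell by 0.74 from untreated skin to the 24 hr allergen site of sensitized dogs, and at the 24 hr saline site of nonsensitized dogs KDR rose by 0.77 and VWF fell by 0.86. None of the 3 fibroblast genes was called at 24 hr. Their median was 0.04 in the interaction, and against untreated skin it was -0.51 with allergen and -0.50 with saline at 24 hr in sensitized dogs and 0.14 and 0.19 in nonsensitized dogs. The suprabasal keratin KRT1 stood at -0.50 in the interaction (adjusted p = 0.45). The part of these markers in the values of FLG2, ASPRV1, KPRP and LOR was not tested.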

How the data were processed

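The processed signal of 60 one-colour Agilent arrays (8 slides, 3 scan sessions) was read; per the file headers it is an intensity with background subtracted (Feature Extraction 10.7.3.1). The files of 2 arrays lack these headers and were taken to hold the same signal, and their slide was read from the file name only. The series values matched it. Values the software called outliers were removed (4588 past the filter), and probes were kept when 5 arrays of a group were well above background. Values were scaled by a Python reimplementation of variance stabilization, tested on simulated data, and are given in log2. limma 3.58.1 (R 4.3.3) fitted the means of 10 groups on 59 arrays, with p-values adjusted over 45972 probes. Arrays of the same dog deviated together (median correlation 0.386 over 116 pairs, against -0.0438 over 1595 pairs of different dogs). Each dog gave 5 biopsies, some of them on the same slide, and the 2 were not separated. Correlations over 12 dogs were tested by permutation with 100000 resamples, and those over 6 dogs exactly. The genes and lists were chosen with earlier results of these data known. A scan session block, values within slides and slide 7 alone were added after the data were seen. Gene symbols came from RefSeq (1067 identifiers) and the supplementary list (463 identifiers).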

Additional observations from a re-analysis of the deposited data

Results flagged for a closer look

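A dog far from the others of its group was looked for in 50 groups of values and found in 2, and chance alone flags about 1 in 20 groups. FLG2 (ENSCAFT00000020610) read 8.60 in dog 2838 at the 24 hr allergen site of sensitized dogs, with the next dog at 9.92. ASPRV1 read 12.15 in the same dog at the 6 hr saline site, with the next dog at 12.68.

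The difference between sensitized and nonsensitized dogs in their 24 hr allergen effect was picked out by the interaction test for FLG2 (ENSCAFT00000020634, -1.41), FLG2 (ENSCAFT00000020610, -1.88) and ASPRV1 (-1.25). The cause was not tested.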

How the results depend on the processing

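All 5 probes kept a negative 24 hr interaction and a negative 24 hr allergen minus saline difference in sensitized dogs under 26 of 26 alternatives. How many of them were called varied, and the cause was not tested. Over the single results 2043 kept direction and call, 91 lost and 40 gained a call, and 86 turned direction. Only 1 of these was called on either side, the correlation of ASPRV1 and KPRP, at -0.97 in nonsensitized dogs alone.

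In the 24 hr interaction 3 were called, against 5 with an unadjusted p limit of 0.002, with all 60 arrays, with the slide as a fixed block or as a random block, and 1 with unscaled values (0 to 5 leaving out a dog). KPRP joined the 3 with the stricter filter, with only the groups compared and with the scan session block. Paired by dog, with the dog as replicate block, 5 were called. Between allergen and saline in sensitized dogs at 24 hr 5 were called, against 4 with 75th percentile scaling, with normexp and quantile scaling or without a filter, 3 with unscaled values and 0 with only the groups compared (0 to 5 leaving out a dog). Between the 24 hr allergen site and untreated skin of sensitized dogs 5 were called, against 4 with the unadjusted p limit, without a filter or with the scan session block, 3 with unscaled values and 1 with the slide as a fixed block. In nonsensitized dogs 1 was called, against 2 without a fold limit, without a filter on dim probes or with the dog block, 4 with unscaled values, and 0 with the unadjusted p limit, the stricter filter, all 60 arrays, either slide block or the scan session block (0 to 1 leaving out a dog).

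Between 6 hr saline and untreated skin of sensitized dogs 0 were called, against 1 without a fold limit or with the dog block and 2 without a filter (0 to 1 leaving out a dog). At 24 hr saline 0 were called against untreated skin, and 1 with unscaled values, in sensitized dogs. In nonsensitized dogs 0 were called, against 1 without a fold limit, with the stricter filter or with normexp and quantile scaling, and 4 with unscaled values (0 to 1 leaving out a dog). The dog block changed no other count. Of 10 correlated pairs 6 were called, against 1 in sensitized dogs, 2 in nonsensitized dogs, 0 on slide 7 and 0 without the 2 farthest dogs.

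No difference that turned direction was called in the fit reported or in the fit that turned it. A fixed slide block links 24 hr and untreated arrays through only 1 array. With the slide as a fixed block, 24 hr saline minus untreated turned to 0.83 for FLG2 (ENSCAFT00000020634) and -0.42 for ASPRV1 in sensitized dogs, and to 0.60 and -0.61 in nonsensitized dogs. Allergen minus untreated at 24 hr in nonsensitized dogs turned to 0.80 and -0.26 for the same probes. At 6 hr it turned in sensitized dogs to 0.16 for FLG2 (ENSCAFT00000020610), -0.04 for ASPRV1 and 0.12 for LOR, and in nonsensitized dogs to -0.07 for ASPRV1 and -0.03 for KPRP. With the slide as a random block FLG2 (ENSCAFT00000020610) turned to 0.07 at the 6 hr allergen sites of sensitized dogs and ASPRV1 to -0.06 at the 24 hr saline sites of nonsensitized dogs. With the scan session block ASPRV1 against untreated skin turned to -0.04 at the 6 hr allergen sites of both kinds of dog, to -0.28 (sensitized) and -0.51 (nonsensitized) at 24 hr saline sites and to -0.15 at 24 hr allergen sites of nonsensitized dogs, and FLG2 (ENSCAFT00000020610) to 0.02 at 6 hr allergen sites of sensitized dogs.

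With unscaled values FLG2 (ENSCAFT00000020634) against untreated skin at 24 hr turned to 0.11 (saline, sensitized dogs), 0.02 (saline, nonsensitized dogs) and 0.12 (allergen, nonsensitized dogs). Sensitized minus nonsensitized dogs turned to 0.05 for ASPRV1 at 0 hr, and at 24 hr saline sites to -0.09 for FLG2 (ENSCAFT00000020610), -0.13 for ASPRV1 and -0.10 for KPRP. Without a filter it turned to -0.02 for KPRP at 0 hr, and at 24 hr saline sites to -0.03 for FLG2 (ENSCAFT00000020610), -0.07 for ASPRV1 and -0.03 for KPRP, and FLG2 (ENSCAFT00000020610) turned to 0.06 at 6 hr allergen sites of sensitized dogs against untreated skin. ASPRV1 at 24 hr saline sites between the dogs was -0.00 with 75th percentile scaling. With normexp and quantile scaling FLG2 (ENSCAFT00000020610) turned to 0.01 for 6 hr allergen minus saline and ASPRV1 to -0.06 for 24 hr saline minus untreated, both in nonsensitized dogs.

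Leaving out a dog turned these differences over the ranges given. At 0 hr between the dogs ASPRV1 ran from -0.14 to 0.03, FLG2 (ENSCAFT00000020610) from -0.10 to 0.16 and KPRP from -0.11 to 0.13. At 24 hr saline sites between the dogs ASPRV1 ran from -0.08 to 0.10, FLG2 (ENSCAFT00000020610) from -0.05 to 0.20 and KPRP from -0.09 to 0.19. For 6 hr allergen minus untreated, ASPRV1 ran from -0.02 to 0.27 and FLG2 (ENSCAFT00000020610) from -0.21 to 0.07 in sensitized dogs. In nonsensitized dogs ASPRV1 ran from -0.01 to 0.25, FLG2 (ENSCAFT00000020610) from -0.08 to 0.19, FLG2 (ENSCAFT00000020634) from -0.22 to 0.01 and LOR from -0.12 to 0.17. For 6 hr saline minus untreated, FLG2 (ENSCAFT00000020634) ran from -0.01 to 0.26 in sensitized and from -0.01 to 0.17 in nonsensitized dogs, and FLG2 (ENSCAFT00000020610) from -0.01 to 0.22 in the latter. Also in nonsensitized dogs, FLG2 (ENSCAFT00000020610) ran from -0.11 to 0.08 for 6 hr allergen minus saline, ASPRV1 from -0.02 to 0.14 for 24 hr saline minus untreated and LOR from -0.05 to 0.19 for 24 hr allergen minus saline.

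The correlations of ASPRV1 in untreated skin turned to -0.82 and -0.52 with the 2 FLG2 probes (brighter first) and -0.84 with LOR in nonsensitized dogs alone. On slide 7 alone they were -0.49, -0.39, -0.48 with KPRP and -0.51 with LOR, and with LOR -0.08 without the 2 farthest dogs.

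Unscaled values moved the median of all probes by up to 0.51 (24 hr saline minus untreated, nonsensitized dogs). The number of arrays, 5 or 6 a group, limits precision. All 5 probes were well above background on 59 of 59 arrays.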
